A study of Mus musculus with 6 samples.

Results

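The Tribbles pseudokinases are the genes Trib1, Trib2 and Trib3, taken by symbol from the deposited table as 3 of its 48897 genes. All 3 passed the low-count filter that left 18563 tested genes. They were proposed with results of these libraries in view, so their levels and fold changes are given as a description, with errors and no test. The cells were C57BL/6 mouse embryonic fibroblasts, cultured for 5 to 7 passages, with 2 libraries in each of 3 groups. Control cells received PBS, TC cells received TNF-ɑ and cycloheximide, and TCZ cells received TNF-ɑ, cycloheximide and z-VAD-fmk. Cycloheximide stops protein synthesis, TNF-ɑ is a cytokine of inflammation that can trigger cell death when synthesis is blocked, and z-VAD-fmk inhibits many caspases. The series title names apoptosis and necroptosis. Doses and times were not given in the sources used here. Both agents of TC were present in each treated group, so their separate effects cannot be told apart.

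Tribbles proteins keep the fold of a protein kinase but have weak or no catalytic activity, and they act as scaffolds. A motif in the C-terminal tail recruits the ubiquitin ligase COP1, and through it TRIB1 and TRIB2 bring the transcription factor C/EBPα to degradation; the family also binds MAP kinase kinases such as MEK1. TRIB3 is known for binding AKT, ATF4 and CHOP, and its gene is a target of ATF4 and CHOP, the transcription factors of the integrated stress response.

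Trib1 lies at chr15:59648654-59657099 on the plus strand, Trib2 at chr12:15791725-15816962 on the minus strand and Trib3 at chr2:152337425-152344060 on the minus strand (mm10, as in the deposited table). In GENCODE M21 (GRCm38) the coding transcripts with the longest 3′ untranslated region had 3, 3 and 4 exons and coding sequences of 372, 343 and 354 codons. Aligned coding bases were identical at 58.0% of positions between Trib1 and Trib2, 53.3% between Trib1 and Trib3 and 53.9% between Trib2 and Trib3. The longest exact run shared by any pair of these transcripts was 16 bases. Trib2 overlaps Gm5432 on the opposite strand and Mir6387, which held 12 and 2 counts over all 6 libraries.

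Promoters from RefSeq (GRCm38.p6), covering 250 bases before to 50 after the start, were matched for Trib2 and Trib3; Trib1 had no entry. They are shown because these genes were the members that were lower in both treated groups, and because ATF4 acts on Trib3 through a known composite element. Capitals mark matches on either strand to TGATGNAA, the core of the ATF4-C/EBP composite element, found in 3.97% of 32851 promoters of the same length. The Trib2 window is chr12:15816736-15817035 and the Trib3 window chr2:152344011-152344310, both printed on the minus strand.
Trib2: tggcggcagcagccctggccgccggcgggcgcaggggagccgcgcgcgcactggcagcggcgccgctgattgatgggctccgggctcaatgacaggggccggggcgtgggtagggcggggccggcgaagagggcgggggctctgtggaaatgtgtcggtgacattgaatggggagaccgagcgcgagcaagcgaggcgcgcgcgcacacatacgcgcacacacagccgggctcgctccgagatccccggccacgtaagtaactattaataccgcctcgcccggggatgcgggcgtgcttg
Trib3: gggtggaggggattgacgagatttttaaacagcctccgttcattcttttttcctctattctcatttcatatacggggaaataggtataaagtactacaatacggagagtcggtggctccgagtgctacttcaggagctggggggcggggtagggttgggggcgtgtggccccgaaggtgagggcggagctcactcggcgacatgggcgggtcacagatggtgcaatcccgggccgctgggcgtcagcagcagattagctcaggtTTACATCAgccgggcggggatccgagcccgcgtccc
The Trib3 window held 1 match, 14 bases after the start, and the Trib2 window held none. The RefSeq start of Trib3 lies at the end of its deposited position, but that of Trib2 lies inside it. Deposited Trib2 reaches to 15816962, so part of its window before the start falls within the gene as deposited. Neither window held TGACGTCA (cyclic AMP response element, in 1.79% of promoters), TGANTCA (AP-1, 7.81%), CACGTG (E-box, 7.15%) or the kappaB motif (8.46%), searched on both strands. GC content was 71.0% for Trib2 and 58.3% for Trib3.

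Total counts were 24922627 to 52909926 per library, and control 2 and TCZ 2, with the lowest totals, also held the fewest counts of the small RNAs Rnu1a1 (1 to 3 against 165 to 274) and Rn7s1 (4 to 1338 against 4916 to 6106). Summed RPKM of 10 fibroblast markers was 6535 to 7840 in every library, with the collagen gene Col1a1 the highest in control and the intermediate filament gene Vim the highest in TC and TCZ. Epithelial markers summed to 13.2 to 14.3 RPKM in control, 51.9 to 56.8 in TC and 9.10 to 11.3 in TCZ, with Krt19 the highest and 0 to 2 counts of Krt5. In TC against control Krt19 (2.11 ± 0.11), Krt18 (1.98 ± 0.18), Krt8 (3.42 ± 0.62), Epcam (3.33 ± 1.01) and Cldn4 (3.58 ± 0.89) passed as higher. Epcam and Cldn4 held only 1 to 2 counts per control library. Cdh1 was at 2.16 ± 0.99 and did not pass (edgeR adjusted p = 0.0653). Endothelial markers summed to 2.45 to 2.78, 25.2 to 26.4 and 10.5 to 10.99 RPKM, with Kdr the highest and 0 to 6 counts of Cldn5. They did not move together in TC. In TC against control the log2 fold change was 3.92 ± 0.09 (SE) for Kdr, 1.84 ± 0.43 for Vwf and -1.17 ± 0.34 for Tek. Pecam1 and Cdh5 did not pass there (edgeR adjusted p = 0.189 and 0.194). In TCZ Pecam1 held 528 and 260 counts, against 1 and 4 in control. Leukocyte markers reached 7.09 to 15.1 RPKM, muscle markers 10.6 to 20.2 and neural markers 23.8 to 52.3. The part of these markers in the results below was not tested. In such bulk samples fewer cells of a type and less RNA per cell cannot be told apart.

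Trib1, the member best known for directing C/EBPα to COP1, was lowest in control, higher in TC and highest in TCZ. The control libraries held 879 and 587 raw counts, the TC libraries 2901 and 2892, and the TCZ libraries 10706 and 4841. Scaled by TMM to counts per 1e+06 (CPM), the control level was 18.1 and 19.5, the TC level 59.7 and 58.2, and the TCZ level 221 and 200.2. Libraries of different groups did not overlap, and each step in the order was wider than the spread within the groups. Group means were 18.8 ± 0.96, 58.9 ± 1.11 and 210.4 ± 14.4 CPM (SD, n = 2). The log2 fold change was 1.65 ± 0.08 (SE) in TC against control, 3.49 ± 0.08 in TCZ against control and 1.84 ± 0.08 in TCZ against TC.

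Trib2, which shares the C/EBPα and COP1 function of Trib1, ran in the opposite order. The control pair held 3152 and 1978 counts, the TC pair 249 and 269, and the TCZ pair 106 and 43. On the CPM scale the control pair stood at 64.9 and 65.6, the TC pair at 5.13 and 5.41, and the TCZ pair at 2.18 and 1.78. Both treated groups lay far below control, and TCZ lay below TC with no overlap. Means were 65.3 ± 0.46, 5.27 ± 0.20 and 1.98 ± 0.29 CPM (SD, n = 2), so control was 12.4 times the TC level and 32.9 times the TCZ level. The log2 fold change was -3.63 ± 0.10 in TC against control, -5.0 ± 0.12 in TCZ against control and -1.37 ± 0.14 in TCZ against TC (SE).

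Trib3, the stress-regulated member, was also far below control in both treated groups, but here TC was the lowest. Control held 2522 and 1490 counts, TC 95 in each library, and TCZ 219 and 84. The corresponding levels were 52.0 and 49.4 CPM, 1.96 and 1.91 CPM, and 4.51 and 3.47 CPM. The TCZ libraries lay above both TC libraries and differed from each other more than the TC pair did. With means of 50.7 ± 1.8, 1.93 ± 0.03 and 3.99 ± 0.735 CPM (SD, n = 2), control was 26.2 times the TC level and 12.7 times the TCZ level. The log2 fold change was -4.71 ± 0.12 in TC against control, -3.63 ± 0.12 in TCZ against control and 1.08 ± 0.15 in TCZ against TC (SE), the last ranging from 0.84 without TCZ 1 to 1.23 without TCZ 2.

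Without control 2 and TCZ 2, the libraries that stood apart, the log2 fold changes in TC against control were 1.70 for Trib1, -3.63 for Trib2 and -4.75 for Trib3. In TCZ against control they were 3.6, -4.90 and -3.53, and in TCZ against TC 1.91, -1.27 and 1.22. Each direction and the order of the groups were therefore as with all libraries.

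**Figure D1:**
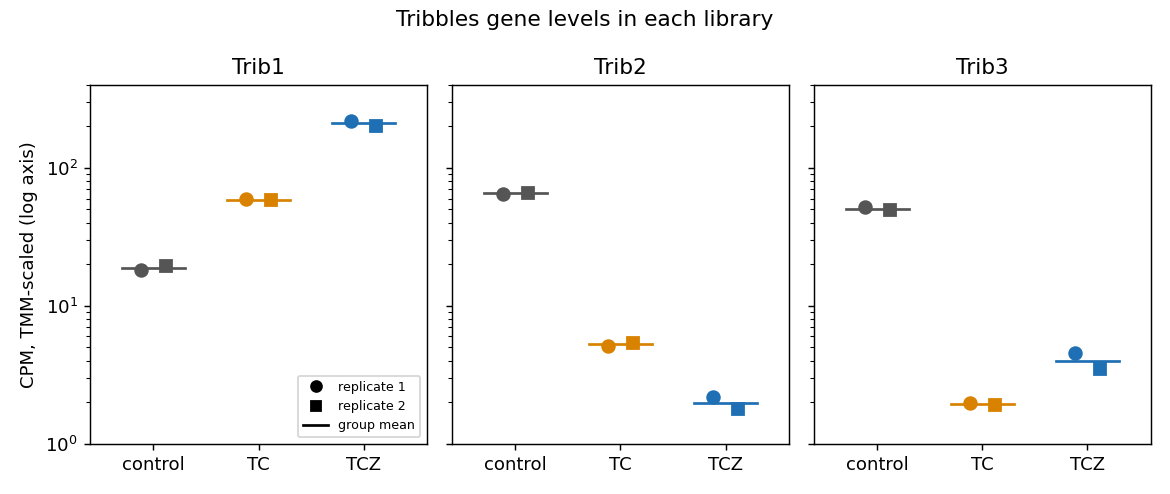
Level of each Tribbles gene in each library, in CPM on a log axis, with circles for replicate 1, squares for replicate 2 and lines for group means. Trib1 climbs from 18.8 CPM in control to 210.4 in TCZ, Trib2 drops from 65.3 to 1.98 CPM, and Trib3 is lowest in TC at 1.93 CPM.

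Libraries of different groups did not overlap for any member in any comparison, but the share of all genes without overlap was not computed. The background was taken by another measure. In TC against control, 60.7% of all tested genes passed an adjusted p of 0.05 by edgeR's quasi-likelihood test (31.6% higher and 29.2% lower). The share was 60.1% in TCZ against control (31.5% and 28.6%) and 56.1% in TCZ against TC (28.2% and 27.9%). Nothing is read from the members against these shares, since they were proposed from the same contrasts. Their place among the 18563 fold changes was as follows. In TC against control, 28 genes had a lower log2 fold change than Trib3, 100 a lower one than Trib2, and 2743 a higher one than Trib1. In TCZ against control, 68 genes lay below Trib2, 215 below Trib3 and 1614 above Trib1. Both comparisons use the same control libraries. In TCZ against TC, 1859 genes lay below Trib2, 2607 above Trib3 and 1445 above Trib1. Trib2 and Trib3 were thus nearer the middle than in the comparisons with control, and Trib1 was not.

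**Figure D2:**
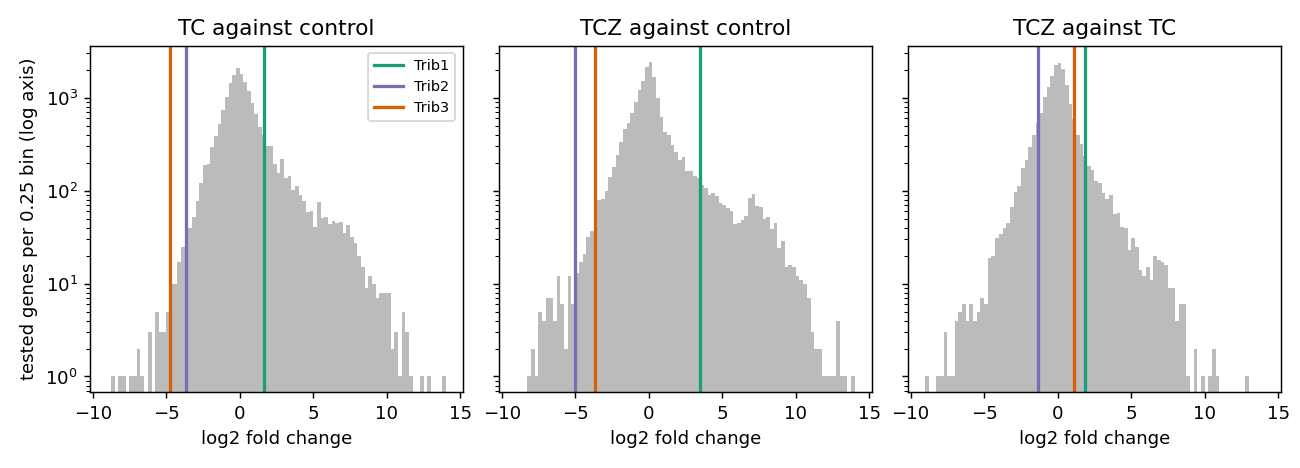
Histograms of the log2 fold changes of the 18563 tested genes in each comparison, with the number of genes per bin on a log axis and a vertical line for each Tribbles gene. Trib2 and Trib3 stand in the left tail in both comparisons with control, at -3.63 and -4.71 in TC and at -5.0 and -3.63 in TCZ, while Trib1 stands to the right at 1.65 and 3.49.

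To compare the members with each other, the authors' RPKM values were used, which divide counts by gene length (4026, 4377 and 2051 bases for Trib1, Trib2 and Trib3). In control the order was Trib3 at 26.8 ± 0.45 RPKM, Trib2 at 16.2 ± 0.96 and Trib1 at 5.06 ± 0.52 (SD, n = 2). In TC it was Trib1 at 14.3 ± 0.29, Trib2 at 1.18 ± 0.04 and Trib3 at 0.92 ± 0.02 RPKM. In TCZ it was Trib1 at 49.3 ± 1.42, Trib3 at 1.83 ± 0.27 and Trib2 at 0.43 ± 0.04 RPKM. All neighbours in these orders differed by more than their spread. Among tested genes, 88.1% had a lower mean RPKM than Trib3 in control, against 40.4% in TC and 49.8% in TCZ, and for Trib1 the share went from 60.5% to 79.7% and 93.5%.

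Summed over the family, the control libraries reached 46.6 and 49.3 RPKM, the TC libraries 16.6 and 16.2, and the TCZ libraries 52.7 and 50.3. The TCZ sum was thus near the control sum on this scale, with another member making it up. RPKM uses library totals without TMM factors, which were 1.04 and 1.12 in control and 0.92 and 0.97 in TCZ. With those factors the TCZ sum would lie higher relative to control. Trib1 made 10.5 ± 0.67% of the family RPKM in control, 87.2 ± 0.37% in TC and 95.6 ± 0.45% in TCZ (SD, n = 2). Trib3 made 55.8 ± 1.31%, 5.61 ± 0.01% and 3.55 ± 0.40%, and Trib2 made 33.7 ± 0.65%, 7.17 ± 0.38% and 0.83 ± 0.06%.

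**Figure D3:**
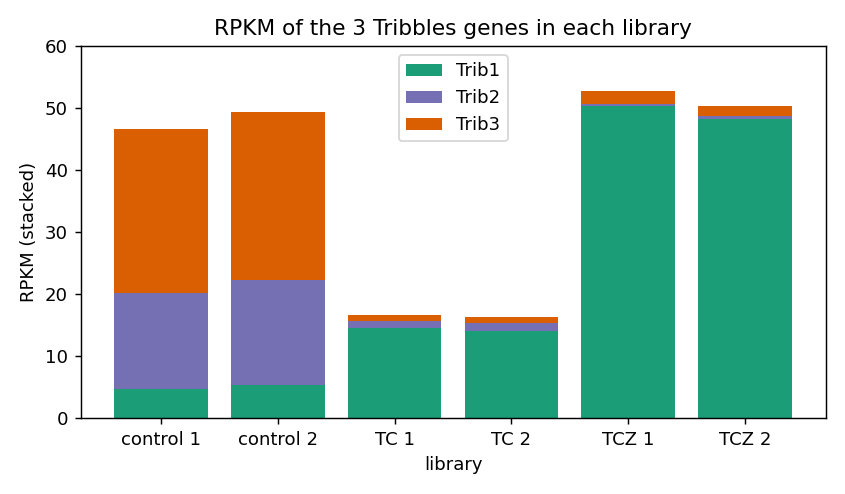
RPKM of Trib1, Trib2 and Trib3 stacked for each of the 6 libraries. Control bars are mostly Trib3 and Trib2, whereas Trib1 fills 87.2% of the TC bars and 95.6% of the TCZ bars on average.

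In their 3′ untranslated regions the members differed too. The AU-rich pentamer ATTTA, a letter pattern often found in unstable transcripts, occurred 6 times in the 1881 bases of Trib2, or 3.19 per kb, and 0 times in the 2398 bases of Trib1 and the 785 bases of Trib3. The median over 13841 tested genes was 1.30 per kb, and 17.7% of them had at least the Trib2 density. The nonamer TTATTTATT, present in 8.29% of these genes, was in none of the members. These are letter counts in annotated transcripts and not measurements of decay.

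The genes most like each member over the 6 libraries were ranked by the root mean square difference of centred log2 CPM among 9772 candidates. For Trib1 they were Irf1, an interferon regulatory transcription factor (difference 0.12), Nr4a1, an orphan nuclear receptor (0.13), Tnfaip6, a TNF-induced hyaluronan-binding protein (0.14), Rnf225 (0.14) and Letm2 (0.20). Irf1 had means of 9.71, 28.7 and 117 CPM in control, TC and TCZ. For Trib2 the nearest was Mgat5, an enzyme of N-glycan branching (0.37; 27.9, 2.95 and 1.43 CPM), followed by Armcx4 (0.50), Tmppe (0.53), Dhx32 (0.57) and Fbxo17 (0.59). For Trib3 the nearest was Sec16b, a protein of ER exit sites (0.40; 13.2, 0.65 and 1.33 CPM), followed by Zfp354c (0.45), the fatty acid desaturase gene Scd2 (0.45), Kif21b (0.48) and Cmklr1 (0.49). The matches to Trib1 were closer than those to Trib2 and Trib3.

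The nearest tested protein-coding genes on the chromosome were read for the region around each member. Rbck1, a subunit of the linear ubiquitin ligase complex 4.78 kb from Trib3, fell in both treated groups, with log2 fold changes of -1.21 ± 0.09 in TC and -1.27 ± 0.09 in TCZ (SE, edgeR adjusted p = 5.39e-11 and 4.01e-11). Sox12, a transcription factor gene 49.6 kb away on the other side, fell too, at -2.29 ± 0.14 in TC and -3.46 ± 0.17 in TCZ (edgeR adjusted p = 5.17e-12 and 5.66e-14). Nsmce2, a SUMO ligase gene 47.0 kb from Trib1, rose by 0.50 ± 0.08 and 0.54 ± 0.08 (edgeR adjusted p = 1.35e-05 and 7.01e-06). Fam84b, 1162 kb from Trib1 on the other side, rose in TC (0.95 ± 0.08, edgeR adjusted p = 8.26e-10) and did not pass in TCZ (0.02 ± 0.08, adjusted p = 0.820). Beside Trib2, whose level was lower in both treated groups, both neighbours rose. Lpin1, a phosphatidate phosphatase gene 719 kb away, had log2 fold changes of 0.34 ± 0.10 and 0.37 ± 0.10 (edgeR adjusted p = 0.00528 and 0.00336), and Fam84a, 1640 kb away, 2.83 ± 0.27 and 3.07 ± 0.27 (5.46e-09 and 1.72e-09).

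Trib3 was set beside 34 genes of the ATF4-CHOP pathway, chosen by name, all of which were tested. In TC 9 rose and 20 fell, or 85.3% against 60.7% of all tested genes, with a median log2 fold change of -0.51 against 0.02 over all genes. Of all tested genes 31.6% rose and 29.2% fell. Of the 8 regulators 5 rose and 1 fell. Atf4 itself, the main transcription factor, rose from 269.9 ± 10.7 to 875 ± 5.62 CPM (1.70 ± 0.07, edgeR adjusted p = 7.57e-15). Ddit3, which encodes CHOP, rose from 46.3 ± 4.06 to 141 ± 6.74 CPM (1.61 ± 0.09, edgeR adjusted p = 6.44e-13). Ppp1r15a, the phosphatase subunit GADD34 that reverses eIF2α phosphorylation, rose by 2.31 ± 0.08, and the ER-stress kinase gene Eif2ak3 (PERK) fell by 1.10 ± 0.10. All 10 targets of amino acid and one-carbon synthesis fell, including asparagine synthetase, Asns, by 0.47 ± 0.07 (edgeR adjusted p = 4.18e-06).

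Among stress targets in TC, 6 of 12 fell and 3 rose, where 29.2% of all tested genes fell and 31.6% rose. Chac1, a glutathione-degrading enzyme gene induced by ATF4 and CHOP, fell from 22.1 ± 1.85 to 6.67 ± 0.76 CPM (-1.73 ± 0.12, edgeR adjusted p = 2.47e-11). Sesn2 and Ddit4, both inhibitors of mTORC1 signalling, changed by -0.99 ± 0.08 and -1.57 ± 0.09. Atf3, a transcription factor, rose from 2.40 ± 0.04 to 242 ± 5.91 CPM. No gene of the list had a log2 fold change as low as that of Trib3, the nearest being the cystine transporter gene Slc7a11 at -2.76 ± 0.14.

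In TCZ against control 13 of the 34 genes rose and 11 fell (70.6%, against 60.1% of all tested genes), with a median of 0.01 against 0.05 over all genes. Scaling by library totals alone gave 9 higher and 17 lower, and leaving out control 2 and TCZ 2 gave 12 and 12. Atf4 and Ddit3 were again higher, at 747 ± 38.5 and 163 ± 20.5 CPM. Of all tested genes 31.5% rose and 28.6% fell. Of the 10 synthesis targets 3 fell, near that share, and 0 rose. Asns stood at 190.4 ± 5.21 CPM against 181 ± 3.78 in control (0.07 ± 0.07, edgeR adjusted p = 0.399). The number of synthesis targets that fell was 8 with library totals alone, where Asns was at -0.13. Of the 12 stress targets 6 rose and 4 fell, or 4 and 4 with library totals alone. Atf3 was highest here, at 1018 ± 71.3 CPM. Chac1 was again low at 6.60 ± 0.45 CPM and Ddit4 was at 6.75 ± 0.19 CPM, below its control level of 39.9 ± 0.44.

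Compared directly, TCZ exceeded TC for 21 of the 34 genes and was lower for 7, 82.4% against 56.1% of all tested genes, with a median of 0.50 against 0.02. Of all tested genes 28.2% were higher in TCZ and 27.9% lower. Each of the 10 synthesis targets was higher in TCZ, with a median of 0.70, and the same count held without control 2 and TCZ 2. Mthfd2, an enzyme of mitochondrial folate metabolism, went from 39.6 ± 1.20 in TC to 111 ± 4.13 CPM, against 121 ± 11.2 in control. Trib3 too was higher in TCZ than in TC, at 3.99 CPM against 50.7 in control. The regulators went mostly the other way, with 3 of 8 higher in TCZ and 5 lower. Atf4 was at -0.23 ± 0.07 (edgeR adjusted p = 0.00895), or -0.17 without TCZ 2. Of the 12 stress targets 5 were higher in TCZ and 2 lower, with Ddit4 at -0.99 ± 0.10. Chac1 did not pass (SE 0.13, edgeR adjusted p = 0.986).

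**Figure D4:**
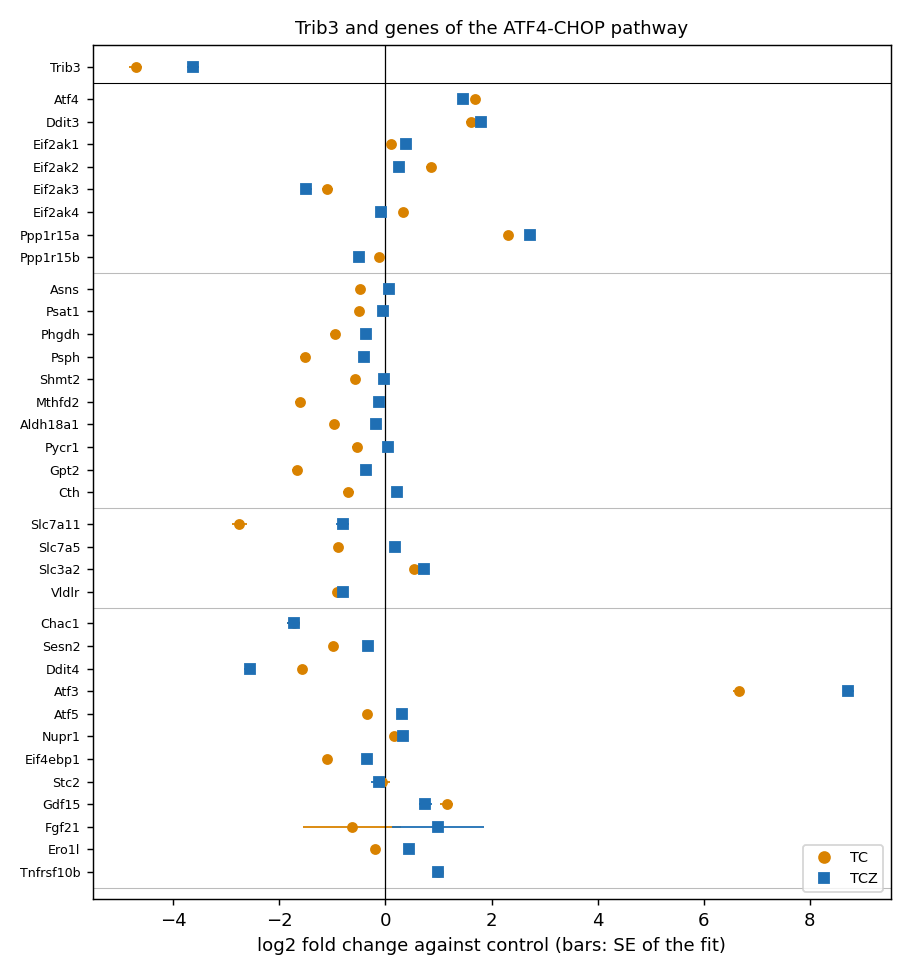
Log2 fold changes against control of Trib3 (top) and the 34 ATF4-CHOP pathway genes in TC (circles) and TCZ (squares), with SE bars, in blocks for regulators, amino acid and one-carbon targets, transporters and stress targets. Trib3 lies to the left of every listed gene, Atf4 and Ddit3 lie to the right of 0, and the synthesis targets sit left of 0 in TC and nearer 0 in TCZ.

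The composite core was searched in the promoters of the same list, to place the Trib3 match. It was present in 8 of the 28 listed genes with a promoter entry (28.6%) and in 4.51% of 27025 genes overall. The stretches that follow (GRCm38.p6), for Trib3 and for 4 of these 8 genes picked because their responses differed, show the match in capitals with up to 10 bases on each side, on the strand that reads TGATGNAA. Trib3 is chr2:152344029-152344056 (plus), Chac1 chr2:119351039-119351066 (minus), Atf3 chr1:191183426-191183453 (plus), Asns chr6:7693215-7693242 (minus) and Nupr1 chr7:126625563-126625590 (plus).
Trib3: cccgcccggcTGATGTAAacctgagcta
Chac1: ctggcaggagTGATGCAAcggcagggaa
Atf3: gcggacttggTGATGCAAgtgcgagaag
Asns: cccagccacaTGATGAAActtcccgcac
Nupr1: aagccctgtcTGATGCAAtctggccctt
At the free position of the core Trib3 has T, Asns has A, and Chac1, Atf3 and Nupr1 share C. With genes picked in this way, differing responses were bound to appear. In TC Trib3, Chac1 and Asns were lower than control and Atf3 was higher. Nupr1, a stress-induced chromatin protein gene, stood at 0.17 ± 0.09 (edgeR adjusted p = 0.0984). The listed genes with the core that are not printed were Slc7a11, Vldlr, Pycr1 and Fgf21. In TC the first 3 fell, at -2.76 ± 0.14, -0.92 ± 0.08 and -0.53 ± 0.10 (SE). Fgf21, with 2 and 10 counts in TC, did not pass (edgeR adjusted p = 0.575). A match is a description of the letters and does not show that ATF4 bound there.

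The partners of Tribbles proteins formed a list of 31 genes, all tested. Cebpe, with 0 counts in control and TC, passed the filter through TCZ and could only be called higher there. It is part of the tallies of both TCZ comparisons. In TC 11 rose and 13 fell (77.4%, against 60.7% of all tested genes). The median was 0.00, or -0.01 over genes with counts in both groups. In TCZ 12 rose and 11 fell (74.2%, against 60.1%) with a median of 0.04. TCZ against TC gave 15 higher and 10 lower (80.6%, against 56.1%). Without control 2 and TCZ 2 these were 11 and 13, 11 and 10, and 14 and 10 of 30 tested genes. Of the COP1 ligase, the gene of COP1 itself, Rfwd2, fell from 97.3 ± 9.51 to 56.1 ± 1.37 CPM in TC and 61.6 ± 2.95 in TCZ (edgeR adjusted p = 1.09e-08 and 2.23e-07). Det1, its adaptor in the cullin complex, stood at 11.9 ± 0.30 CPM in control and 13.8 ± 0.07 in TC (edgeR adjusted p = 0.113), and fell to 5.21 ± 0.64 in TCZ (edgeR adjusted p = 3.5e-08). In TCZ 1 of the 7 ligase genes rose and 2 fell, where 31.5% of all tested genes rose and 28.6% fell. With library totals alone 5 of the ligase genes fell.

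Among C/EBP factors, Cebpa, whose protein is degraded through TRIB1 and TRIB2, was low. It stood at 6.58 ± 0.16 CPM in control, 5.03 ± 0.54 in TC and 6.57 ± 0.12 in TCZ. Its adjusted p in TC (edgeR, 0.0332) became 0.113 with DESeq2, 0.152 without control 1, 0.0729 without control 2 and 0.224 without TC 1. Cebpb rose from 64.1 ± 14.3 to 125 ± 18.6 CPM in TC (0.95 ± 0.12, edgeR adjusted p = 4.56e-07), and Cebpd, an acute-phase factor, from 15.3 ± 0.11 to 32.9 ± 0.58 CPM (1.11 ± 0.11, edgeR adjusted p = 1.39e-08). In TCZ they stood at 85.8 ± 13.3 and 16.6 ± 3.84 CPM. The call for Cebpb against control there (edgeR adjusted p = 0.00508) was lost without control 2 (0.233), with DESeq2 (0.112) and with library totals alone (0.0808), and Cebpd (0.293) passed without TCZ 2 (0.0091). Cebpe had 0 counts in control and TC, and 14 and 6 in TCZ.

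Of the 7 MAP kinase kinase genes, 3 rose and 4 fell in TC, or 2 fell with no low-count filter. Of all tested genes 31.6% rose and 29.2% fell in TC. Map2k3, an activator of p38, rose by 1.35 ± 0.08 in TC and 1.66 ± 0.08 in TCZ, and Map2k4, an activator of JNK and p38, by 1.34 ± 0.07 and 1.0 ± 0.07. Map2k1, which encodes the Tribbles-binding kinase MEK1, fell from 113 ± 3.86 to 80.5 ± 0.74 CPM in TC (-0.49 ± 0.07, edgeR adjusted p = 5.82e-06) and stood at 114 ± 8.77 CPM in TCZ (0.01 ± 0.07, adjusted p = 0.902, or -0.19 and adjusted p = 0.00556 with library totals alone). Map2k7, a JNK activator, was at 25.7 ± 0.21 CPM in TCZ against 47.1 ± 3.15 in control (-0.88 ± 0.08, edgeR adjusted p = 3.48e-09).

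Akt1, a survival kinase bound by TRIB3, fell by 0.71 ± 0.08 in TC and by 0.52 ± 0.08 in TCZ (edgeR adjusted p = 8.08e-08 and 8.34e-06), while Foxo3, a transcription factor restrained by AKT and by TRIB2, rose by 0.999 ± 0.08 and 1.31 ± 0.08. Among substrates of COP1, Jun rose from 147 ± 5.85 to 724 ± 47.0 and 1482 ± 120.4 CPM in TC and TCZ. Ets2 rose by 1.94 ± 0.07 and 1.57 ± 0.07. Etv4 did not pass in TC (-0.06 ± 0.08, edgeR adjusted p = 0.534, or 0.0222 at -0.20 with library totals alone) and fell by 0.62 ± 0.08 in TCZ. Acaca, the acetyl-CoA carboxylase that TRIB3 links to COP1, fell by 0.60 ± 0.07 in TC and was at -0.10 ± 0.07 in TCZ (edgeR adjusted p = 0.253, or 7.62e-05 at -0.30 with library totals alone).

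**Figure D5:**
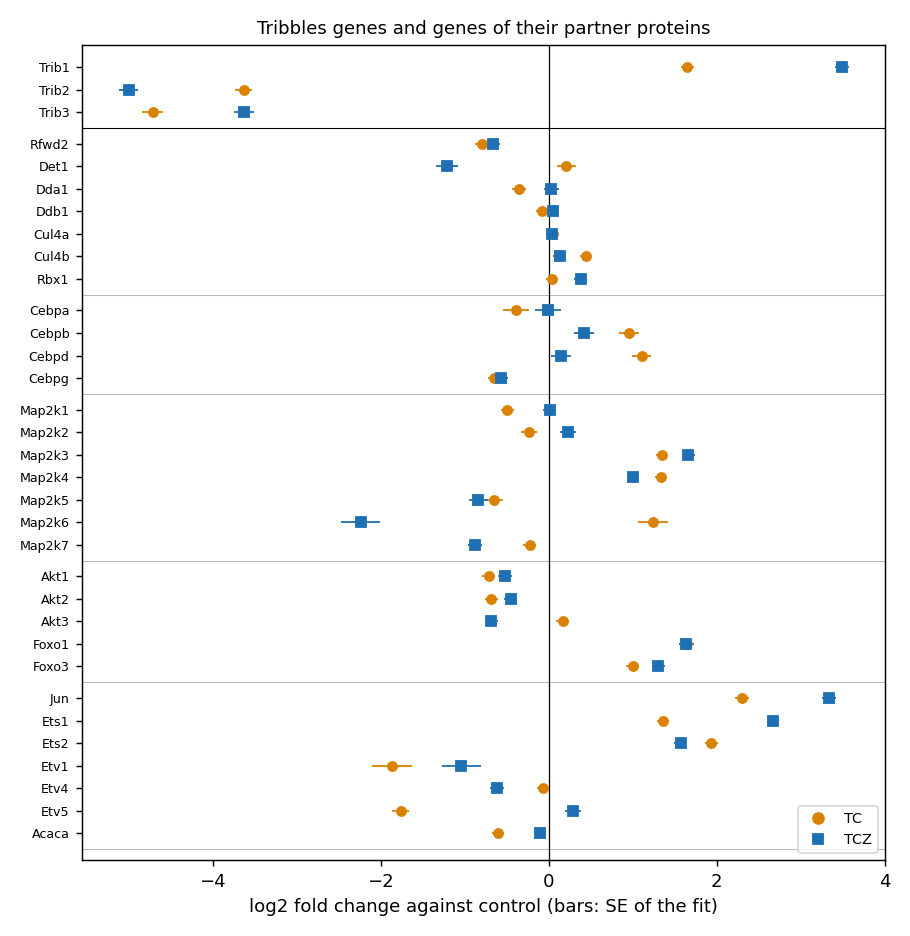
Log2 fold changes against control of the Tribbles genes (top) and 30 partner genes in TC (circles) and TCZ (squares), with SE bars, in blocks for the COP1 ligase, C/EBP factors, MAP kinase kinases, AKT and FOXO, and COP1 substrates; Cebpe, with 0 control counts, is left out. Trib2 and Trib3 lie left of all partner genes in both groups, and Jun is the partner farthest to the right, at 2.30 and 3.33.

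Other pseudokinases were compared as proteins of the same kind: 34 were listed and 32 tested, Epha10 and Stk31 having at most 5 counts in any library. Tex14 held 2 and 1 counts in control and 31 and 19 in TCZ. Ksr2 held 5 and 0 in control and 32 and 27 in TC. Both passed the filter only through treated libraries, where they were high. The tallies of higher genes include Ksr2 in both groups against control, and Tex14 in TCZ against control and against TC. In TC 13 rose and 16 fell (90.6%, against 60.7% of all tested genes) with a median of -0.31, and in TCZ 7 rose and 19 fell (81.3%, against 60.1%) with a median of -0.55. In TCZ against TC 9 were higher and 14 lower (71.9%, against 56.1%), with 5 higher without TC 2, 6 with DESeq2 and 6 with library totals alone. Without control 2 and TCZ 2 the counts were 13 and 16, 6 and 17, and 7 and 14. Stk40, a relative of the Tribbles genes, rose from 76.3 ± 3.95 to 179 ± 6.91 CPM in TC and 140.4 ± 10.8 in TCZ (edgeR adjusted p = 5.87e-12 and 1.69e-09). Mlkl, the executor of necroptosis, went from 15.4 ± 0.43 to 21.7 ± 2.71 CPM in TC and to 7.92 ± 0.38 in TCZ (0.49 ± 0.10 and -0.97 ± 0.12, edgeR adjusted p = 0.00031 and 2.21e-07).

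Irak2 and Irak3, which act in Toll-like receptor signalling, diverged in TC, with Irak2 at 29.4 ± 1.24 CPM in control and 22.8 ± 0.62 in TC, and Irak3 at 7.60 ± 0.24 and 17.6 ± 2.43. In TCZ both fell below control, to 6.05 ± 0.01 and 4.73 ± 0.14 CPM. Peak1, a cytoskeletal scaffold, rose by 0.45 ± 0.07 in TC and did not pass in TCZ (-0.12 ± 0.07, edgeR adjusted p = 0.135, or 0.0106 without control 2 and TCZ 2 and 3.62e-05 with library totals alone). Bub1b, the spindle checkpoint protein BUBR1, fell in both, at -0.58 ± 0.08 and -0.68 ± 0.08. The list's lowest log2 fold changes were -2.73 in TC and -2.28 in TCZ, above those of Trib2 and Trib3.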

How the data were processed

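RNA was measured by poly(A)-selected sequencing in 6 libraries, 2 per group. The tools listed in the submitters' processing notes are HISAT2 2.1.0, HTSeq and bcl2fastq, and the build is mm10. Annotation version, strand setting and filters were not given in the sources used here. The authors deposited raw read counts per gene and RPKM values, per the file headers; RPKM equalled counts over gene length and library total (largest difference 4.97e-07). The count analysis used edgeR 4.0.16 under R 4.3.3, with filterByExpr (minimum count 10), TMM scaling, and 1 quasi-likelihood model of all 6 libraries with group as the only factor (3 residual degrees of freedom). P-values were Benjamini-Hochberg adjusted over 18563 genes, with a threshold of 0.05. SE was derived from the fit as the absolute log2 fold change over the square root of the quasi-likelihood F. It draws on variance shared across genes and is not the replicate spread of the gene itself. CPM is counts per 1e+06 after TMM. No label states that replicate libraries are separate cultures, so the p-values reflect only how these libraries vary, which may be technical. The procedure was run on simulated counts in which few genes changed, as many up as down. Most genes passed in these libraries, so that run cannot test the scaling used here.

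The members and lists were chosen with earlier results of these data known. Named genes were the members, the 5 genes most like each by root mean square difference (mean of at least 5 CPM, log prior count 0.5, leaving out Gm, Rik and -ps symbols), and a stated part of the lists. Slc7a11, Vldlr, Pycr1, Fgf21, Mthfd2, Nupr1, Cebpe, Tex14, Ksr2, Epha10, Stk31, marker genes and chromosomal neighbours were named after their values were seen. Alternatives were DESeq2 1.42.0, RLE factors, library totals alone, no low-count filter, the replicate number as a block, and leaving out libraries. Library totals alone moved the median of all genes (log2) by -0.14 for TC and -0.20 for TCZ, each against control, and by -0.06 between TC and TCZ, so fold changes are relative to the TMM scale. With TMM 5851 genes were higher and 5313 lower in TCZ against control, and with library totals alone 4556 and 7019.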

Additional observations from a re-analysis of the deposited data

How the results depend on the processing

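The direction of each Tribbles fold change held under every alternative run. Scaling by library totals alone moved 5 of them beyond the spread between replicates: on the log2 scale, Trib1 was 1.51 in TC against control and 3.29 in TCZ against control, Trib2 -3.78 and -5.21, and Trib3 -4.86 in TC against control. Leaving out 1 library at a time gave 1.60 to 1.69, -3.66 to -3.59 and -4.76 to -4.67 for Trib1, Trib2 and Trib3 in TC against control, 3.41 to 3.56, -5.20 to -4.89 and -3.88 to -3.48 in TCZ against control, and 1.76 to 1.91, -1.57 to -1.27 and 0.84 to 1.23 in TCZ against TC; a lone library was assumed to vary like the other groups. With counts not divided by gene length, the family shares in control, TC and TCZ were 13.9%, 89.1% and 97.2% for Trib1, 48.4%, 7.97% and 0.91% for Trib2, and 37.6%, 2.92% and 1.84% for Trib3, so that Trib2 and not Trib3 was the largest in control.

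Genes passing numbered 9355 to 11663, 9423 to 11397 and 8640 to 10335 in the 3 comparisons when 1 library was left out. Same-numbered libraries did not deviate together (correlations of 0.01, 0.09 and -0.02), so the number was not taken as a pairing. With the replicate block 11240 genes passed in TC against control and the log2 fold changes of Trib1, Trib2 and Trib3 were 1.65, -3.63 and -4.71. Of the named genes, Asns (-0.13) and Map2k1 (-0.19) in TCZ against control turned lower and passed with library totals alone. Over the other combinations of named gene, comparison and alternative, 40 calls were lost, 6 were gained in the same direction and 1032 kept their side of the threshold. The lowest counts behind the Tribbles values were 43 and 106 for Trib2 in TCZ and 84 to 219 for Trib3 in TC and TCZ, which limits their precision.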
